A study of Mus musculus with 4 samples.

Results

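The Skint genes (selection and upkeep of intraepithelial T cells) form a family of mouse membrane proteins with immunoglobulin-like domains, related to the butyrophilins and encoded side by side on chromosome 4. The 10 genes Skint1 to Skint10 were looked up in the array's gene annotation, and 6 of them had a transcript cluster, the set of probes that stands for a gene on this array. These were Skint2, Skint3, Skint4, Skint7, Skint9 and Skint10, with 1 cluster each, among 19938 genes with a cluster of their own. No cluster was matched to Skint1, Skint5, Skint6 or Skint8 by symbol, gene identifier or transcript accession, and 0 clusters named several Skint genes together, so nothing is reported for those 4 genes.

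Total RNA came from skin of C57BL/6 mice and was hybridised to Affymetrix mouse gene arrays, 4 in all. Every mouse was labelled Tnfrsf1a+/-, that is, heterozygous for the gene of the TNF receptor TNFR1. The 2 arrays labelled K5-Cre (replicates 2 and 6) were both CflarF/F;K5-Cre;Tnfrsf1a+/-, in which Cre recombinase is driven by the promoter of keratin 5, active in basal keratinocytes, against floxed alleles of Cflar, the gene of the cell death inhibitor cFLIP. The 2 arrays without K5-Cre were CflarF/+;Tnfrsf1a+/- (replicate 1) and CflarF/F;Tnfrsf1a+/- (replicate 3). Age, sex, body site and batch are not in the labels used here, nor whether an array held 1 animal or a pool, so the p-values reflect only how these samples scatter, which may be technical. The study asked which genes might stand in the way of keratinocyte proliferation and epidermal differentiation.

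Skint1, the founding member, is required in the mouse thymus for the maturation of dendritic epidermal T cells (DETC), the gamma-delta T cells that fill the mouse epidermis with a nearly uniform receptor. Skint genes are expressed in thymic epithelium and in keratinocytes, and keratinocyte Skint proteins have been linked to the upkeep of DETC and to their behaviour at wounds. The functions of most members other than Skint1 are less well defined. Skint2 has also been described under the name B7S3, as a relative of the B7 molecules that tune T cell activation.

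The upstream sequences of 2 pairs of members are shown because each pair has a pair of windows alike in sequence. The members' differences between the groups had the same sign in the first pair (-3.82 and -1.24) and opposite signs in the second. In the second pair the Skint3 difference did not pass. The pairs were chosen after the values had been seen. Each window runs from 250 bases before to 50 bases after a RefSeq gene start (GRCm38.p6), 5′ to 3′ on the strand of the gene. Capitals mark the bases identical to the other member of the pair in a global alignment with free end gaps. The Skint9 window (chr4:112433936-112434235, minus strand) and the Skint10 window (chr4:112774812-112775111, minus strand) share 184 bases, 61.3% of the window. The Skint3 window (chr4:112231995-112232294, plus strand) and the second of the 2 windows listed for Skint4 (chr4:112081220-112081519, plus strand) share 191 bases, 63.7% of the window. The other Skint4 window was aligned with Skint3 over 49 bases only, 29 of them identical, so its likeness over the whole window was not measured.
Skint9: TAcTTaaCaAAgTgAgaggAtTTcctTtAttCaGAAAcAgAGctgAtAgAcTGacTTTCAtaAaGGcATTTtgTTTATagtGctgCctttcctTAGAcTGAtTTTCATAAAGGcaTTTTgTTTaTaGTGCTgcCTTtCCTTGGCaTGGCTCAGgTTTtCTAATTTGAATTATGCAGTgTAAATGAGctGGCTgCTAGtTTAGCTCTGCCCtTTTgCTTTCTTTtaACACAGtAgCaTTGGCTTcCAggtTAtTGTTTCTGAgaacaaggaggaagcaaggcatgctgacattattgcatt
Skint10: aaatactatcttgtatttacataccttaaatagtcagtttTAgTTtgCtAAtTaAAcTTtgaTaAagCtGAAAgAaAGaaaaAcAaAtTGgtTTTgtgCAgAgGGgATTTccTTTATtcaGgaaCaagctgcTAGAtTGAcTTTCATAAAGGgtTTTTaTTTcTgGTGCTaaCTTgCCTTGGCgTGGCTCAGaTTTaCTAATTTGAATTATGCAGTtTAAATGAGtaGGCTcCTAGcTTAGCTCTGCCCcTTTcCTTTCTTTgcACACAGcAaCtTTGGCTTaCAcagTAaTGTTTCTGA
Skint3: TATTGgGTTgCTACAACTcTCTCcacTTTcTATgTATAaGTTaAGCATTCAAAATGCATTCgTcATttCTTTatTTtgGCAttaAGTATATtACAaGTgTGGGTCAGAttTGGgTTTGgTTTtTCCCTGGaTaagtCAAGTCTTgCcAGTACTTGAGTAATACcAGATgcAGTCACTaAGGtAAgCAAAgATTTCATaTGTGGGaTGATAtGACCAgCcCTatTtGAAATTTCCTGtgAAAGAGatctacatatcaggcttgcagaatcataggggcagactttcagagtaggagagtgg
Skint4: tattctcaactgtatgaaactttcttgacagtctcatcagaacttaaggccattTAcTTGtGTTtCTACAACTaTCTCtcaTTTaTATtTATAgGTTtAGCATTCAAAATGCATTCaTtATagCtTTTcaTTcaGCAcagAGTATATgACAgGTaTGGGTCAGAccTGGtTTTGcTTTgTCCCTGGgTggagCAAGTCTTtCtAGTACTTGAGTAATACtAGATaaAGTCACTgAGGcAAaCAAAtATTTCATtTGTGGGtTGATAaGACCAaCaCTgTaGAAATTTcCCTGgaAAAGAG

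In the skin labelled K5-Cre, 4 of the 6 measured Skint genes were lower than in skin without K5-Cre, and Skint9 fell most. Skint4, Skint10 and Skint2 also fell. Skint7 differed little, and Skint3 was the 1 member with a higher mean, a difference that did not pass the test. The median log2 difference of the 6 members was -1.18, against 0.09 over all 35557 clusters. The test was limma's moderated test on the deposited log2 values of every cluster, 2 arrays against 2, two-sided, with a threshold of 0.05 on the p adjusted over all clusters by the Benjamini-Hochberg method. Changes were common in this comparison: 48.6% of all clusters passed, 24.3% lower and 24.3% higher, and 4 of 6 members lower is to be read against that. An exact permutation test of 2 arrays against 2 cannot go below a p of 0.333, so each p rests on the variance model. The groups did not overlap for any of the 6 members, as for 80.2% of all clusters, and 5 members lay lower without overlap, as did 35.2% of all clusters.

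**Figure D1:**
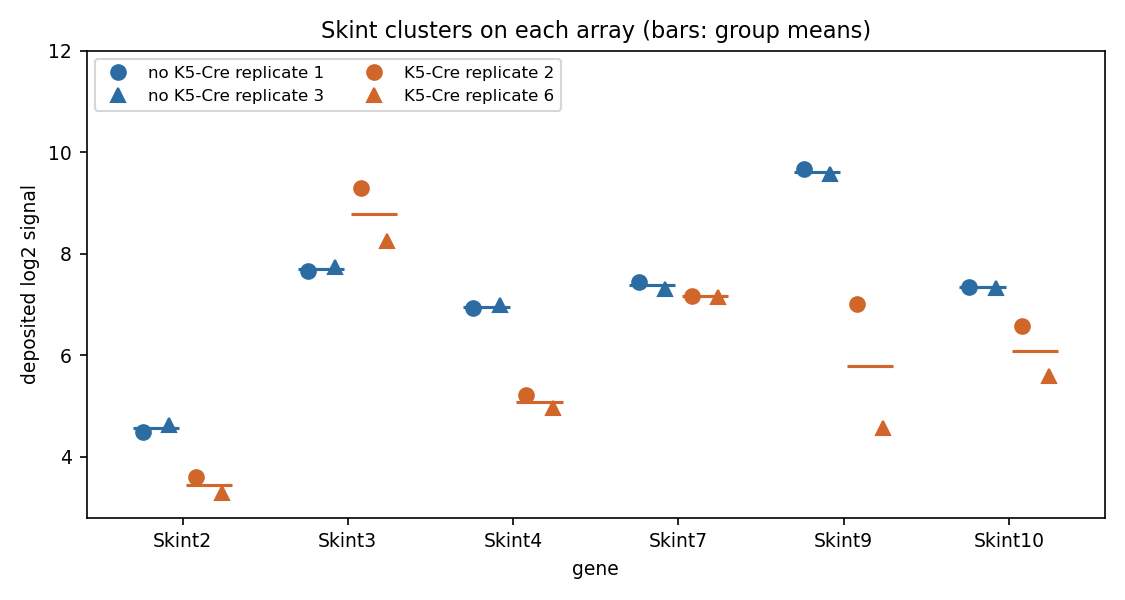
Deposited log2 signal (vertical axis) of each Skint gene (horizontal axis) on the 4 arrays, blue for no K5-Cre and orange for K5-Cre, with horizontal bars at the group means of 2 arrays. The no K5-Cre arrays lie close together for every gene, whereas Skint9 falls from 9.67 and 9.57 to 7.02 and 4.57, and the Skint3 values labelled K5-Cre lie above those without K5-Cre.

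Skint9 had a log2 signal of 9.67 and 9.57 without K5-Cre (replicates 1 and 3), and of 7.02 and 4.57 in K5-Cre replicates 2 and 6. Both control values are high and nearly equal, while the arrays labelled K5-Cre are lower and far apart from each other. The group mean fell from 9.62 ± 0.07 to 5.80 ± 1.73 (SD, n = 2 arrays per group), a log2 difference of -3.82 ± 0.77 (SE, limma adjusted p = 0.0142), which is 14.1-fold. Only 0.26% of all clusters had a lower difference. The size depends on the array: it was -2.60 without K5-Cre replicate 6 and -5.04 without K5-Cre replicate 2. The call was lost when 1 control array was left out, with a limma adjusted p of 0.0808 without no K5-Cre replicate 1, which leaves the CflarF/F genotypes that the study states, and of 0.0747 without replicate 3.

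Skint9 was also the 1 member in the authors' deposited table of 1396 clusters that were selected for a fold of 4.0 or more against no K5-Cre replicate 1. The authors' deposited table places its cluster on chromosome 4 from 112058574 to 112106590 (mm9, minus strand), with 26 probes and the cross-hybridisation code 1, Affymetrix's code for unique probes. In that table Skint9 was 5.15-fold lower in K5-Cre replicate 2 and 20.1-fold lower in K5-Cre replicate 6 than in no K5-Cre replicate 1. The authors' linear signals there were 808 and 741 without K5-Cre and 157 and 40.1 in replicates 2 and 6. On the log2 scale the last value is 5.33, where the series table gives 4.57, so the 2 deposited tables differ at the low end. The difference between group means was -3.29 in the authors' deposited table.

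Skint4 fell with the smallest standard error among the 4 members that fell. Its log2 signal was 6.93 and 6.99 without K5-Cre (replicates 1 and 3) and 5.22 and 4.96 in K5-Cre replicates 2 and 6. The groups are separated by far more than either pair's spread. The difference was -1.87 ± 0.14 (SE, n = 2 per group, limma adjusted p = 0.000722), a 3.66-fold fall. Of the 6 members, Skint4 alone passed under every alternative run in which it was tested, with a limma adjusted p of 0.0132 without no K5-Cre replicate 1 and 0.0138 without no K5-Cre replicate 3.

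The Skint9 window shares 61.3% of its bases with that of Skint10. With the windows of Skint2 and Skint4, which also fell, the alignment with free end gaps overlapped only at the ends. It covered 4 bases for Skint2 and 6 and 4 for the windows of Skint4, so likeness over the window was not measured there. Whether upstream likeness has a part in the falls was not tested. Skint10 moved in the same direction as Skint9. Its log2 signal was 7.34 and 7.33 without K5-Cre and 6.59 and 5.60 in K5-Cre replicates 2 and 6. As for Skint9, replicate 6 is the lower of the arrays labelled K5-Cre. The difference was -1.24 ± 0.32 (SE, n = 2 per group, limma adjusted p = 0.0294), a 2.37-fold fall, and it was -0.75 without K5-Cre replicate 6 and -1.74 without K5-Cre replicate 2. Leaving out no K5-Cre replicate 1 or replicate 3 ended the call (limma adjusted p = 0.13 and 0.12).

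Skint2 read low on every array. Its log2 signal was 4.50 and 4.62 without K5-Cre and 3.60 and 3.30 in K5-Cre replicates 2 and 6. All of these values lie below the 10th percentile of their arrays, which ran from 4.98 to 5.17, so the fall took place at the bottom of the scale. The difference was -1.11 ± 0.17 (SE, n = 2 per group, limma adjusted p = 0.00614), a 2.16-fold fall, a call that was kept without no K5-Cre replicate 1 (limma adjusted p = 0.0477) and lost without replicate 3 (limma adjusted p = 0.0575). Detection above background was not assessed, and the folds of Skint2 and of the low K5-Cre values of Skint4 and Skint9 are those of the deposited values.

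Skint7 had a log2 signal of 7.45 and 7.31 without K5-Cre and of 7.18 and 7.15 in K5-Cre replicates 2 and 6. Both arrays labelled K5-Cre lie just below the lower control. The difference was -0.22 ± 0.11 (SE, n = 2 per group) and did not pass (limma adjusted p = 0.145), with a 95% interval from -0.49 to 0.06. That interval excludes a fall of the size of Skint4 but not a small one.

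Skint3 was the member with the opposite sign. Its log2 signal was 7.67 and 7.75 without K5-Cre and 9.31 and 8.26 in K5-Cre replicates 2 and 6. Both arrays labelled K5-Cre lie above both controls, and replicate 2 is the higher. The difference was 1.07 ± 0.34 (SE, n = 2 per group) with a limma adjusted p of 0.0505 and a 95% interval, not adjusted for the number of clusters, from 0.20 to 1.94. The adjusted p fell below the threshold under 6 of the alternatives: 0.037 with only clusters above the median level, 0.0352 with only clusters that have a gene symbol, 0.0456 after quantile normalization, 0.0406 when all arrays were shifted to one median, 0.00502 without K5-Cre replicate 2 and 4.17e-05 without K5-Cre replicate 6. In the last 2 of these the remaining array labelled K5-Cre is assumed to vary like the controls, and the difference was 0.55 and 1.60. Without no K5-Cre replicate 1 or replicate 3 the adjusted p was 0.194 and 0.161.

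Skint3 and Skint9 had differences of opposite sign. The log2 value of Skint3 minus that of Skint9 was -2.00 and -1.82 without K5-Cre and 2.29 and 3.69 with it. Each of these differences mixes 2 probe sets, so only its change between arrays can be read. It changed by 4.89 between the group means (exact permutation test, two-sided, p = 0.333, the smallest that 2 arrays against 2 allow). This contrast was chosen after the values had been seen.

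The genes with opposite signs are neighbours. In RefSeq order the locus runs Skint8, Skint7, Skint1, Skint4, Skint3, Skint9, Skint2, Skint10, Skint6, Skint5 and Skint11, so Skint3 lies between Skint4 and Skint9, the members with the largest falls. Skint11, a family gene at the end of the locus that is not among the 10, had a log2 signal of 4.64 and 4.16 without K5-Cre and 5.23 and 4.85 in K5-Cre replicates 2 and 6. Like Skint2 it read near the bottom of the scale, and its difference of 0.64 ± 0.23 (SE, n = 2 per group) did not pass (limma adjusted p = 0.069). Of the 12 nearest protein-coding genes outside the locus, 6 on each side, 2 were higher, 3 were lower and 7 did not pass, with a median difference of 0.19. The adjoining genes were Slc5a9, a sodium-coupled sugar transporter gene, which differed by 0.15 ± 0.21 (limma adjusted p = 0.563), and Trabd2b, encoding a membrane metalloprotease that acts on Wnt proteins, which fell by 1.42 (limma adjusted p = 0.00112). From a wider list of 18 genes around the locus, 4 were higher, 4 were lower and 10 did not pass (median 0.22). Pdzk1ip1 rose most, by 1.61, and the cell cycle inhibitor gene Cdkn2c fell most, by 2.61. Among all genes with 1 symbol, 26.2% were higher and 26.6% lower. Neither the 12 nearest genes nor these 18 genes stand out from that. Without no K5-Cre replicate 1, 1 of them was higher and 2 were lower, as without replicate 3, and 8 were higher without K5-Cre replicate 6.

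**Figure D2:**
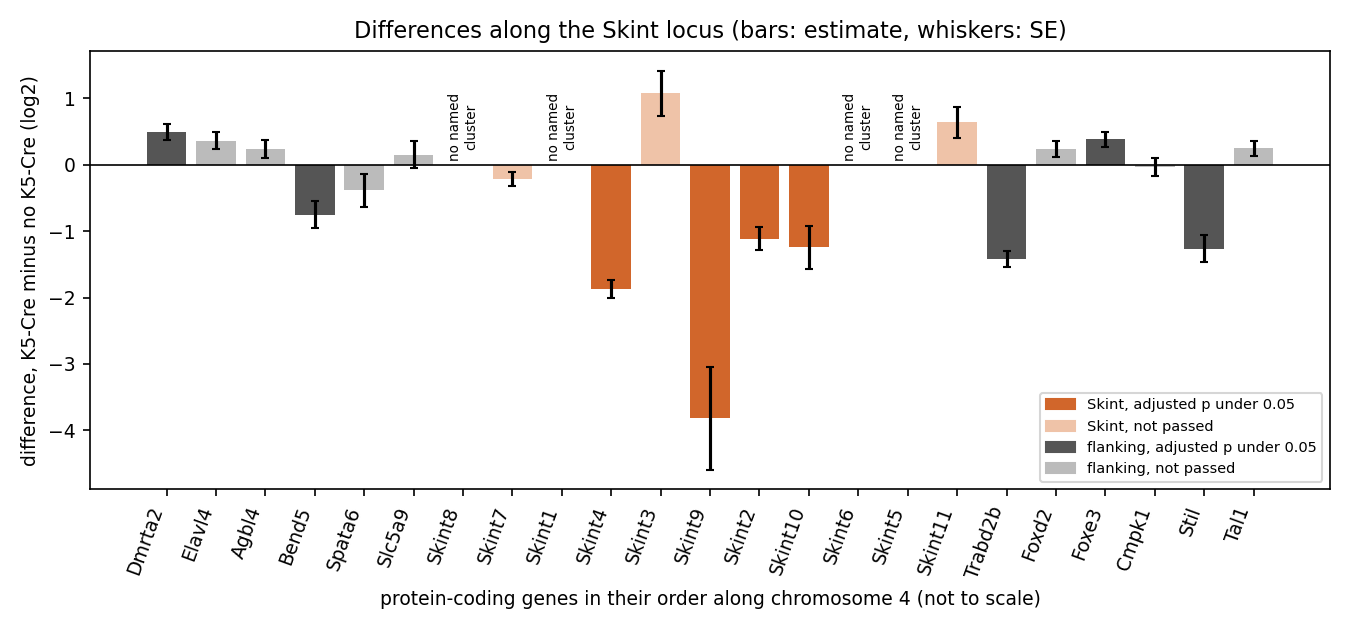
Log2 difference between K5-Cre and no K5-Cre (bars, with the SE as whiskers, n = 2 arrays per group) for protein-coding genes in their order along chromosome 4, not to scale, with Skint genes in orange and flanking genes in grey, dark where the adjusted p was under 0.05. Skint3 lies above 0 between Skint4 and Skint9, which reach -1.87 and -3.82, while the flanking genes lie between -1.42 and 0.49.

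The upstream windows of all 10 family genes were in the RefSeq promoter table, 11 windows in all. The letters TATAAA, on either strand, occur in 7 of the 11 windows and in 13.6% of 32851 RefSeq windows of the same length. The 11 windows are not independent, since several are alike in sequence. These letters lie on the strand of the gene in Skint1 alone, and their places range from -209 to 7 bases from the start. Among the printed windows they occur in Skint9 and in the Skint4 window and not in Skint10 or Skint3. The AP-1 letters TGANTCA occur in 0 of 11 windows and in 7.81% of all windows, and the letters TTCNNNGAA, which STAT factors can bind, occur in 2 of 11, Skint8 and Skint9, and in 8.30% of all windows. The GRHL letters AACCGGTT occur in 0 of 11 and in 0.146% of all windows, and the letters CACCC in 7 of 11 and in 57.5%. These motifs were chosen after the values had been seen, each was searched on both strands, and a match is a description of letters only. The most alike pair was Skint5 and Skint6 (269 of 300 bases), neither of which has a cluster named here.

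The 2 arrays labelled K5-Cre also differed from each other in the family. K5-Cre replicate 2 had the higher value of the pair for all 6 members, as for 46.8% of all clusters, with a median gap of 0.64 against -0.02 over all clusters. The gap was 2.44 for Skint9, 1.04 for Skint3, 0.99 for Skint10, 0.30 for Skint2, 0.27 for Skint4 and 0.03 for Skint7. Only 0.07% of all clusters had a larger gap in either direction than Skint9. That gap rests on a low value in replicate 6, 4.57, at percentile 6.3 of its array, against 7.02 in replicate 2. The authors' deposited table gives 7.29 and 5.33 for replicates 2 and 6, a smaller gap. Between the no K5-Cre arrays the members differed by 0.13 at most, with 3 of 6 higher in replicate 1. With 1 array of each kind these gaps have no test. Other lists differed between the same 2 arrays: all 23 measured genes of the suprabasal and cornified layer were higher in replicate 2 (median gap 0.39). So were 15 of 18 genes around the locus (0.24) and 12 of 14 basal keratinocyte genes (0.18). Higher in replicate 2 were 0 of 12 macrophage genes (-0.67), 4 of 12 Langerhans cell genes (-0.43) and 2 of 10 neutrophil genes (-0.30). The part of these lists in the Skint gaps was not tested.

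**Figure D3:**
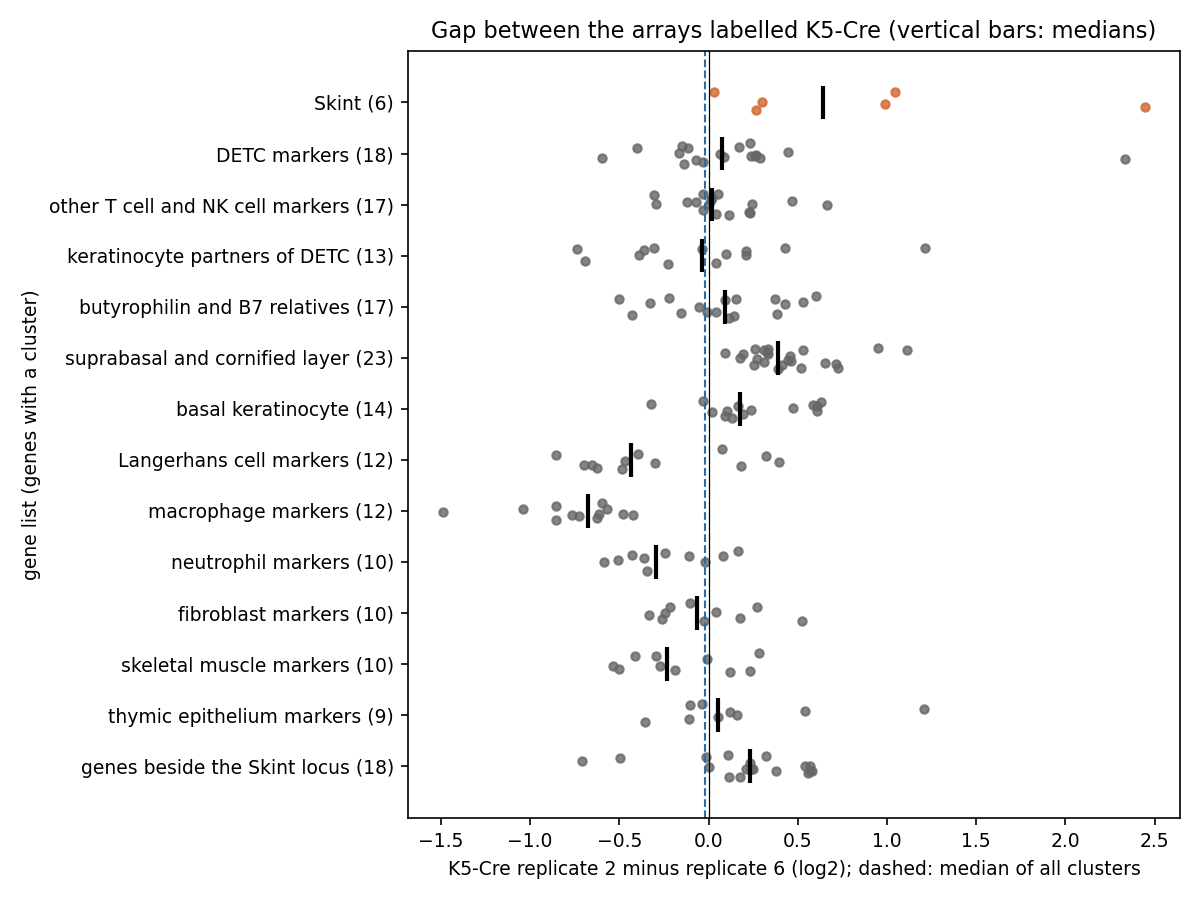
Log2 value in K5-Cre replicate 2 minus that in K5-Cre replicate 6 (horizontal axis) for each gene of the Skint family and of 13 other lists (rows), with a vertical bar at each median and a dashed line at the median of all clusters. All 6 Skint points lie right of 0, Skint9 at 2.44, as do the 23 suprabasal genes, while all 12 macrophage genes lie left of it.

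Suprabasal keratinocytes, in which Skint expression has been described, gave a strong signal on all 4 arrays. Keratins Krt1 and Krt10 of these layers read 13.7 to 13.9 and 13.1 to 13.4 on the log2 scale and differed by 0.04 ± 0.08 and 0.01 ± 0.11 (SE, limma adjusted p = 0.693 and 0.93). Both keratins lie at or above percentile 99.4 of every array, near the top of the scale, so these small differences are no measure of stability. Of 23 genes of the suprabasal and cornified layer with a cluster, 15 were higher in the skin labelled K5-Cre, 2 were lower and 6 did not pass, with a median difference of 0.88. Over all genes with 1 symbol 52.8% passed, 26.2% higher and 26.6% lower. The cornified envelope gene Rptn rose by 5.60, and the crosslinking enzyme genes Tgm3 and Tgm1 rose by 2.42 and 2.25. The transcription factor gene Grhl3, the corneodesmosin gene Cdsn and the calmodulin-like gene Calm4 rose by 2.20, 2.12 and 1.93. Involucrin (Ivl), an envelope precursor, rose by 1.27, and loricrin (Lor) differed by -0.10 (limma adjusted p = 0.53). The genes that fell were Flg2, a filaggrin relative, by 1.24, and the keratin gene Krt77, by 0.53. The summed signal of this list was 82225 and 79004 without K5-Cre (replicates 1 and 3). With K5-Cre it was 150167 and 118273 (replicates 2 and 6). How this sum relates to the Skint values was not tested. Leaving out no K5-Cre replicate 1 or replicate 3 left 9 higher and 0 lower genes in each case, and 4 were lower without K5-Cre replicate 2 and 1 after quantile normalization.

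Basal keratinocyte genes went both ways, with 5 of 14 higher, 4 lower and 5 that did not pass (median 0.13). This stands beside 26.2% higher and 26.6% lower among all genes with 1 symbol. The integrin genes Itga3 and Itgb4 and the keratin gene Krt14 rose by 1.85, 1.31 and 1.36, Col17a1 rose by 0.65 and Krt5 by 0.30. The genes Postn, Krt15, Dst and Sox6 fell, with differences of -3.16, -2.84, -1.35 and -0.88. In the same arrays 10 of 10 fibroblast genes and 9 of 10 skeletal muscle genes fell (medians -2.81 and -3.90). The part of other cell types in the falls of this list was not tested. Without no K5-Cre replicate 1 or replicate 3, 2 of the basal genes were higher, and without K5-Cre replicate 6, 8 were. In whole skin, fewer cells of a type and less RNA per cell cannot be told apart, for the Skint genes as for these lists.

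DETC are the T cells whose selection depends on Skint1, and most of the measured genes listed for them were higher. The receptor genes that define DETC, Trdv4, Trgv5, Trgc1 and Trdc, had no cluster named here, so the list rests on genes that other lymphocytes share. Among all genes with 1 symbol, 26.2% were higher and 26.6% lower. Of the 18 measured genes of this list, 14 were higher in the skin labelled K5-Cre, 0 were lower and 4 did not pass (median 0.67). The largest differences among the genes that passed were those of Fcer1g, a signalling subunit also abundant in myeloid cells (2.25), Jaml, a costimulatory receptor of DETC also found on neutrophils (1.73), and Cd7 (1.20), while Ctla2a, with a difference of 1.95, did not pass. The granzyme gene Gzmb rose by 1.05, and the adaptor gene Hcst and the cytokine receptor gene Il2rb by 0.82 and 0.76. Cd3e, of the T cell receptor complex, read 6.88 and 7.01 without K5-Cre and 7.83 and 7.57 with it, a rise of 0.75 ± 0.13 (SE, n = 2 per group, limma adjusted p = 0.00972). Most of these genes read low: 17 of the 18 lay below the median of all clusters by mean level. The median difference of all clusters was 0.22 for mean levels up to 6.35 and 0.20 for levels from there to 7.61. Of the clusters at these levels, 21.5% and 28.9% were higher. Only 3 of the 14 rises were left without no K5-Cre replicate 1 and 4 without replicate 3. The summed signal of the list was 2589 and 2777 without K5-Cre and 8300 and 9179 with it. Fcer1g alone made up 62.1% and 74.1% of the sums with K5-Cre, and without it the sums were 1389 and 1477 against 3147 and 2373. In the same arrays neutrophil genes (10 of 10 higher, median 5.15) and macrophage genes (12 of 12 higher, median 2.34) rose, and their part in the DETC list was not tested.

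Genes of other T cells and NK cells mostly did not pass. Of 17 measured, 6 were higher, 1 was lower and 10 did not pass (median 0.39). The shares among all genes with 1 symbol were 26.2% higher and 26.6% lower. By mean level, 16 of the 17 lay below the median of all clusters. The median difference of all clusters was 0.22 for levels up to 6.35 and 0.20 from there to 7.61. Of the clusters at these levels, 21.5% and 28.9% were higher and 8.71% and 18.8% lower. The NK receptor genes Klrd1 and Klrb1c rose by 0.61 and 0.54, Cd8b1, Il17a, Cd8a and Foxp3 by 0.44, 0.43, 0.39 and 0.34, and Gata3, a transcription factor gene also expressed in keratinocytes, fell by 1.01. The summed signal was 2675 and 2716 without K5-Cre and 2582 and 2285 with it. Gata3 alone turned this sum: it made up 46.8% and 44.7% of it without K5-Cre, and without Gata3 the sums were 1423 and 1502 against 1813 and 1799. This count depends on scaling and library: 3 were higher and 2 lower after quantile normalization, 11 were higher when all arrays were shifted to one median, 0 without no K5-Cre replicate 1 and 1 without replicate 3, with 0 lower in both of the last, and 2 were lower without K5-Cre replicate 2.

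Genes listed for links between keratinocytes and DETC other than Skint proteins, or for the needs of DETC themselves, changed in both directions. Of 13 measured, 7 were higher, 3 were lower and 3 did not pass (median 0.49), beside 26.2% higher and 26.6% lower among all genes with 1 symbol. The alarm cytokine gene Il1a rose by 2.87, Cd48 by 1.90, the adhesion gene Cdh1 by 1.32 and Raet1d, a stress ligand of the receptor NKG2D, by 1.29. Tgfb1 and the chemokine gene Ccl17 rose by 1.15 and 0.84, and Plxnb2, a receptor for CD100 on DETC, rose by 0.49. Il1a, Cd48, Tgfb1 and Ccl17 are also made by leukocytes, whose neutrophil and macrophage lists rose in the same arrays as given above, and Cd48, like the macrophage genes, was lower in K5-Cre replicate 2 than in replicate 6 (gap -0.74). Their part in these rises was not tested. Cxadr, the keratinocyte ligand of Jaml, differed by 0.29 ± 0.17 (SE) and did not pass (limma adjusted p = 0.197). The genes that fell were Cd1d1, of lipid antigen presentation, by 1.07, Ahr, a transcription factor that DETC need, by 0.78, and Il15, a cytokine on which DETC depend, by 0.50. Without no K5-Cre replicate 1 or replicate 3 the number of lower genes was 1, and 4 were higher without replicate 3.

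Most measured relatives of the family were higher. Of 17 butyrophilin and B7 genes with a cluster, Skint11 among them, 11 were higher, 1 was lower and 5 did not pass. Their median difference was 0.64. Only 5 of the 17 lay above the median level, and clusters of low level tended to be higher. Their median difference was 0.22 for mean levels up to 6.35 and 0.20 from there to 7.61. Among all genes with 1 symbol, 26.2% were higher and 26.6% lower. The inhibitory ligand genes Vsir, Pdcd1lg2 and Cd274 rose by 2.69, 2.08 and 1.14, the costimulatory genes Cd80 and Cd86 by 2.05 and 0.93, and Btn1a1 by 0.74. Btnl9 fell by 0.82. Several of these genes are also made by myeloid cells, whose marker lists rose in the same arrays as given above, and their part was not tested. Without no K5-Cre replicate 1 or replicate 3, 4 were higher and 0 lower, and 2 were lower without K5-Cre replicate 2.

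**Figure D4:**
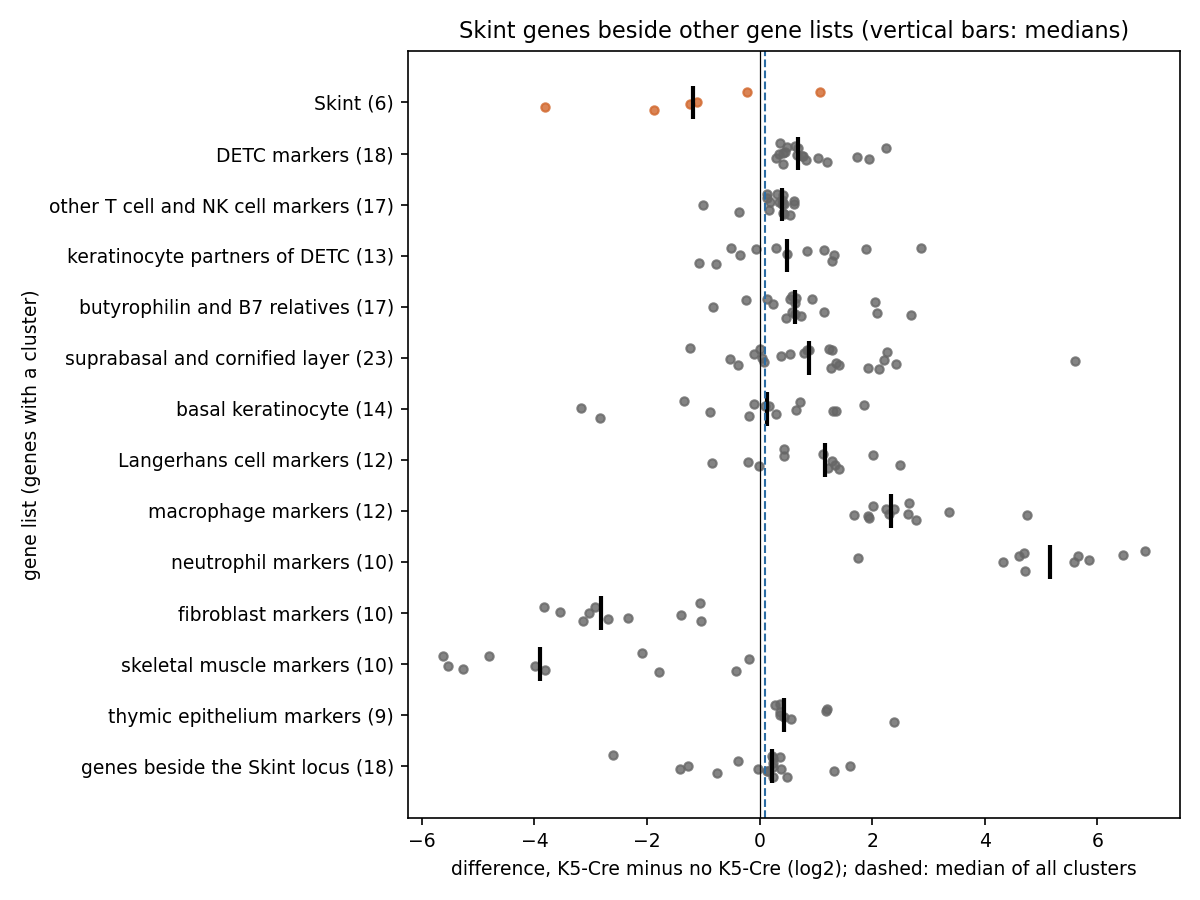
Log2 difference between K5-Cre and no K5-Cre (horizontal axis) for each measured gene of the Skint family and of 13 other lists (rows), with a vertical bar at each median and a dashed line at the median of all clusters. The Skint median lies at -1.18, those of the fibroblast and skeletal muscle lists lie lower, at -2.81 and -3.90, and the medians of the other 11 lists lie between 0.13 and 5.15.

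The remaining marker lists place these values in the tissue. Their counts are to be read beside the 26.2% higher and 26.6% lower among all genes with 1 symbol. Of 12 Langerhans cell genes, 9 were higher, 1 was lower and 2 did not pass (median 1.17). Cd207, which encodes langerin and defines these cells, rose by 0.44, whereas Cd74 and Csf1r, shared with macrophages, rose by 2.49 and 2.01. Without no K5-Cre replicate 1, 3 were higher, and without replicate 3, 5, with 0 lower in both, and 2 were lower without K5-Cre replicate 2. All 10 fibroblast genes were lower (median -2.81), and so were 9 of 10 skeletal muscle genes (median -3.90). Thymic epithelium is the other site of Skint expression, but the RNA came from skin, so its genes are no measure of thymus here. Of 9 genes listed for it, 5 were higher and 4 did not pass (median 0.44). Among the 5 were Ctsl, a protease gene also of macrophages, with a rise of 2.39, and Foxn1, with 1.19. Leaving out no K5-Cre replicate 1 or replicate 3 left 1 of these 5, and 9 were higher when all arrays were shifted to one median. All 3 clusters named Cflar were higher in the arrays labelled K5-Cre, by 0.46 to 0.83, and Tnfrsf1a rose by 1.17. A cluster averages over the transcript and the labels do not give the floxed part, so these values do not check the K5-Cre label, and every direction here rests on the labels.

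The genes whose values over the 4 arrays lay closest to the family's median pattern were Pde3a, Yars2, Plpp1, Glcci1, Dctd and Neto2, with root mean square distances of 0.021 to 0.047 on the log2 scale. The family pattern, each cluster centred on its own mean, was 0.56 and 0.62 without K5-Cre and -0.27 and -0.89 in K5-Cre replicates 2 and 6. Pde3a, a phosphodiesterase gene, read 8.14 and 8.20 without K5-Cre and 7.31 and 6.74 with it. Likeness over 4 arrays rests on 1 split and 1 gap and is given as a description.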

How the data were processed

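Biotin-labelled skin RNA was hybridised to Affymetrix MoGene 1.0 ST arrays, 4 in all. The series table holds log2 values per cluster as deposited by the authors; their summarisation and normalization are not stated in the sources used here. Per the file headers, a second table of the authors holds linear signal intensity, log2 values relative to the no K5-Cre arrays, absolute fold (ratio) and signed fold (score) against no K5-Cre replicate 1, for clusters above the 20th percentile and at least 4.0-fold apart (mm9 annotation). No per-sample column was unused.

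Clusters were named from the platform annotation and updated through Entrez identifiers (21698 of 21789 with 1 symbol). All 35557 clusters were fitted without a filter with limma 3.58.1 in R 4.3.3 (lmFit, eBayes with trend, 5.13 degrees of freedom, median SE 0.13, two-sided, Benjamini-Hochberg), tested on simulated data. No set test was used. A list gene was read from its cluster with the highest mean, and summed signals add linear values. The number of arrays limits the precision. Promoter windows were aligned with Biopython 1.88 (match 1, mismatch -1, gap -3 and -1, end gaps free).

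Named were all Skint clusters, Cflar, Tnfrsf1a, Krt5, defining markers, up to 6 list genes per direction with the largest passing difference, and the 6 genes most alike; Skint11, Slc5a9, Plxnb2 and Cxadr were added after their values were seen. Members and lists were chosen with earlier results of these data known. Alternatives covered the variance trend, filters, scaling, cluster choice, the second table and each array left out.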

Additional observations from a re-analysis of the deposited data

How the results depend on the processing

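All 37 Skint differences recomputed under an alternative that can move the estimate kept their direction. Most of these are fits with 1 array left out. There the direction was fixed in advance, since the groups did not overlap for any of the 6 members. For 14 more differences the alternative changed only the test. No paired analysis was possible because the groups share no replicate number. The cause of a changed call was not tested, beyond what each alternative's construction shows. Over the fits with 1 array left out, the difference ranged from -1.26 to -0.96 for Skint2, 0.55 to 1.60 for Skint3, -5.04 to -2.60 for Skint9 and -1.74 to -0.75 for Skint10, and the number of members called lower from 1 to 4 and higher from 0 to 1. With 3 arrays the group with 1 array is assumed to vary like the other, and 3338 and 3475 clusters were called lower without no K5-Cre replicates 1 and 3, against 8641 with all arrays. Skint3 became a call with only clusters above the median level (1.07) or with a gene symbol (1.07), after quantile normalization (1.18) and when all arrays were shifted to one median (1.14), each of which raised the members called higher from 0 to 1. With only clusters above the median level, 2 members were tested and 1 of them, Skint9, was lower, since the others lie below that level; this filter also left 1 of the DETC genes and 1 of the other T cell genes to test. With symbols only, or with the mean of all clusters of a gene, 11 of the other T cell genes and 8 of the thymic genes were higher. Low signal limits Skint2 and the K5-Cre values of Skint4 and Skint9, for which signal over background was not assessed.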
